A study of Mus musculus with 3 samples.

Results

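Apolipoprotein genes, measured here in mouse liver, encode the proteins that give plasma lipoproteins their structure and direct how they are made, loaded with lipid and cleared. The genes were chosen by symbol, as Apoa1, Apoa2, Apoa4, Apoa5, Apob, Apoc1, Apoc2, Apoc3, Apoe and Apom, which is 10 of the 41799 genes listed, and all 10 were found. Of these, 9 had counts in every library and passed a minimum mean of 1 CPM (counts scaled to library size), and Apom was listed at 0 in every library. Membership follows from this list of symbols, with no threshold on a measured value, but the family was picked with earlier results of these data known. Other genes with apolipoprotein names, among them Apoh, Apof and Apoc4, are not in the list. Sums over the family leave them out.

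RNA was sequenced from whole liver of male C57BL/6 mice aged 14 weeks, with 1 library for each of 3 groups. The first group received a high-fat diet and 40 mg/kg of DfCS-Ib by oral gavage, where DfCS-Ib is a code name for a preparation that the series describes as a sulfated oligosaccharide. The second received the high-fat diet (HFD) and is called the negative control of the treatment, with no gavage of vehicle mentioned for it. The third received regular chow. The labels name 8 mice per group and do not say how many mice went into a library. A group of 1 library has no spread to test against, so no p-value is given and the ratios below describe these 3 libraries. The intervals are exact 95% (Clopper-Pearson) intervals that cover counting error alone. The reads counted on genes came to 10969699 in the DfCS-Ib library, 12279537 in the HFD library and 11028671 in the chow library. The tissue label was checked against 8 hepatocyte markers, of which 8 were detected, and they summed to 123384 CPM in the DfCS-Ib library, 112028 CPM in the HFD library and 140561 CPM in the chow library. Over the 3 libraries, summed levels of markers of other cells lay between 152 and 192 CPM for stellate cells and 260 and 304 CPM for endothelium. They lay between 40.8 and 53.9 CPM for bile duct cells and 90.1 and 150 CPM for the erythroid lineage. For fat cells they lay between 0.0929 and 6.14 CPM, and for exocrine pancreas between 4.55 and 13.7 CPM. Single genes made up most of some sums. In the HFD library, Alb had 85030 CPM, Alas2 (erythroid) 120 CPM and Cfd (fat cells) 5.98 CPM. Of the 8 hepatocyte markers, 3 were higher in HFD than in chow. Alas2 was highest in the HFD library, where Hba-a1, Hba-a2 and Hbb-bs were lowest. The sums therefore do not measure cell content.

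Apolipoprotein B is the large, non-exchangeable scaffold of very-low-density lipoproteins (VLDL), which the hepatocyte fills with triglyceride before secretion. Apolipoproteins A-I and A-II are the main proteins of high-density lipoprotein (HDL). The small exchangeable apolipoproteins move between particles: C-II activates lipoprotein lipase, C-III slows lipolysis and clearance, A-V promotes lipolysis, and E binds the receptors that remove remnant particles. Most of the family lies in a pair of gene clusters, Apoa1, Apoc3, Apoa4 and Apoa5 on chromosome 9 and Apoe, Apoc1, Apoc4 and Apoc2 on chromosome 7.

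The stretches of DNA just upstream of 5 of the genes are shown because these genes stood on opposite sides of the diet comparison: Apoa4, Apoa5 and Apob had their lowest level in the HFD library, and Apoa2 and Apoc2 their highest. Each is the 250 bases before the transcription start that RefSeq gives on GRCm38.p6 (the mm10 build), written 5′ to 3′ on the strand of the gene, with the TATA box letters TATAAA in capitals. The positions are chr9:46240594-46240843 on the plus strand for Apoa4, chr9:46268358-46268607 on the plus strand for Apoa5, chr12:7977427-7977676 on the plus strand for Apob, chr1:171224804-171225053 on the plus strand for Apoa2 and chr7:19677942-19678191 on the minus strand for Apoc2.
Apoa4: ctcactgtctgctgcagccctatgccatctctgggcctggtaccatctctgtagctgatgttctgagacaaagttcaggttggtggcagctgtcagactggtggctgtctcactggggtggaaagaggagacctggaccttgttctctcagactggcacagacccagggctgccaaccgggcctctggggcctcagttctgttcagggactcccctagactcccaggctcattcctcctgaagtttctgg
Apoa5: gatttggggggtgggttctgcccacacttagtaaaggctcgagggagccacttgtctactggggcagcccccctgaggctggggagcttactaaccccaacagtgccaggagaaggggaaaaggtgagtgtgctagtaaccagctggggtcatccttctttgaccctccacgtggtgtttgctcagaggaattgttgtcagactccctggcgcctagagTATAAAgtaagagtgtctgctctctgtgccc
Apob: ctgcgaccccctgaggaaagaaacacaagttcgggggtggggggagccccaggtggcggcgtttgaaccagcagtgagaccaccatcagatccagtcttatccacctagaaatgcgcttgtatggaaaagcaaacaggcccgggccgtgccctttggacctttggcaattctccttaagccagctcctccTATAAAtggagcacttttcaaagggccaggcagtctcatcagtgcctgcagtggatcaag
Apoa2: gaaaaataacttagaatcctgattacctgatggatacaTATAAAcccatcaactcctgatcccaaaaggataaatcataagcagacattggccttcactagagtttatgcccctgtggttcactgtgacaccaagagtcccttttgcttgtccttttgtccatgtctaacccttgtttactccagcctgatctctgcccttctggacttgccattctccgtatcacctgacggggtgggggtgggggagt
Apoc2: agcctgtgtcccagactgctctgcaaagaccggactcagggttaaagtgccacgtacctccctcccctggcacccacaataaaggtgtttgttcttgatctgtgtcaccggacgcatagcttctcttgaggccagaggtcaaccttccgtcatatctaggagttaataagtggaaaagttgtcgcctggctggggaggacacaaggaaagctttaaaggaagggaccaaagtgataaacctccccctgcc
Short motifs were searched on both strands in the windows of 7 of the genes (RefSeq entries matched 8 of the 10 genes, Apom among them): the TATA box, the CCAAT box and a half-site for nuclear receptors. The TATA box TATAAA lay 31 bases before the start in Apoa5, 60 bases before it in Apob and 212 bases before it in Apoa2, and was not found in the windows of Apoa1, Apoa4, Apoc2 and Apoe. Of all 32851 RefSeq windows of this length, 12.4% held it. The box CCAAT, found in 33.8% of all windows, occurred in Apoa2 on the opposite strand, 164 bases before the start. The half-site AGGTCA, found in 14.0% of all windows, occurred in Apoc2, 115 bases before the start. The RefSeq starts of Apoa2 and Apob lie downstream of the gene starts in the deposited tables, and a match of letters is a description and not a measured binding site.

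Several of the apolipoproteins were among the most abundant transcripts in all 3 libraries. The summed counts of the family were 618453 in the DfCS-Ib library, 723978 in the HFD library and 608378 in the chow library. These were 5.64% (5.62 to 5.65) of all counts in the DfCS-Ib library, 5.90% (5.88 to 5.91) in the HFD library and 5.52% (5.50 to 5.53) in the chow library. After scaling of the libraries by the trimmed mean of M-values (TMM), the sum was 57645 CPM in the DfCS-Ib library, 56262 CPM in the HFD library and 56536 CPM in the chow library. The summed level was thus 1.02-fold (1.021 to 1.028) in DfCS-Ib over HFD, 0.995-fold (0.992 to 0.999) in HFD over chow and 1.02-fold (1.016 to 1.023) in DfCS-Ib over chow. The sum hardly differed between the libraries on this scale, and its direction depended on the scaling: with library totals alone it was 0.956-fold in DfCS-Ib over HFD and 1.07-fold in HFD over chow. Apoe, Apob and Apoa1 held 79.8% of the family's counts in the DfCS-Ib library, 76.8% in the HFD library and 81.5% in the chow library.

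**Figure D1:**
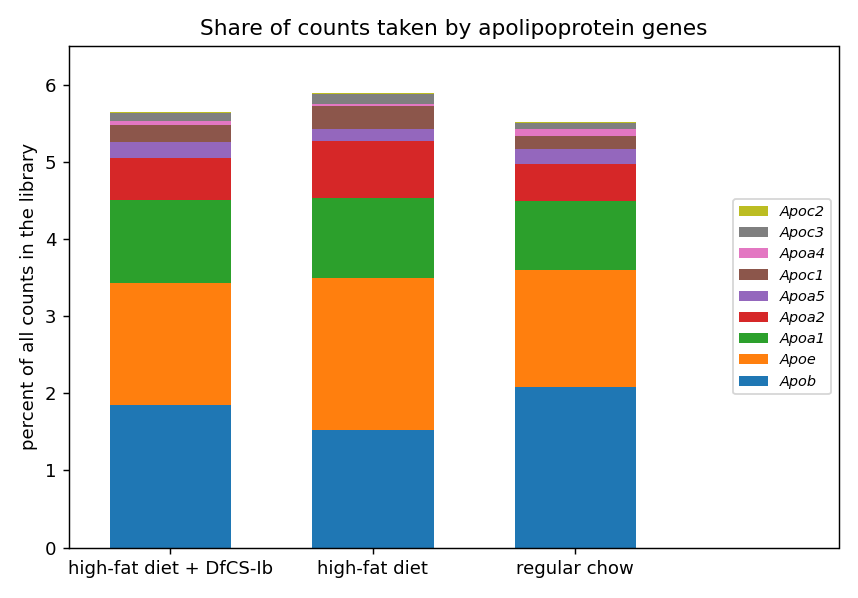
Share of all counts in each library taken by each apolipoprotein gene, in percent, stacked from the most abundant gene at the bottom, with 1 bar per library. The whole bar reaches 5.64% in the DfCS-Ib library, 5.90% in the HFD library and 5.52% in the chow library, with a thinner Apob block and thicker Apoe and Apoa2 blocks in the HFD library.

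The mixture differed between the libraries. Per length (RPKM, reads scaled to transcript length and library size), the family summed to 41099 in the DfCS-Ib library, 48352 in the HFD library and 36595 in the chow library, so on that scale, which weights the short genes more, the sum was 0.850-fold in DfCS-Ib over HFD and 1.32-fold in HFD over chow. Apoe led the family in every library and was the 2nd most abundant of all genes in each. Apoa1 ranked 3rd in the DfCS-Ib library, 4th in the HFD library and 4th in the chow library, and Apoa2 ranked 4th in the DfCS-Ib library, 3rd in the HFD library and 6th in the chow library. At the other end, Apoc2 ranked 340th in the DfCS-Ib library, 237th in the HFD library and 318th in the chow library. The order of the 9 genes by RPKM was Apoe, Apoa1, Apoa2, Apoc1, Apob, Apoc3, Apoa5, Apoa4 and Apoc2 in both the DfCS-Ib and the chow library. In the HFD library Apoa2 stood above Apoa1, Apoc3 above Apob, and Apoc2 above Apoa4.

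**Figure D2:**
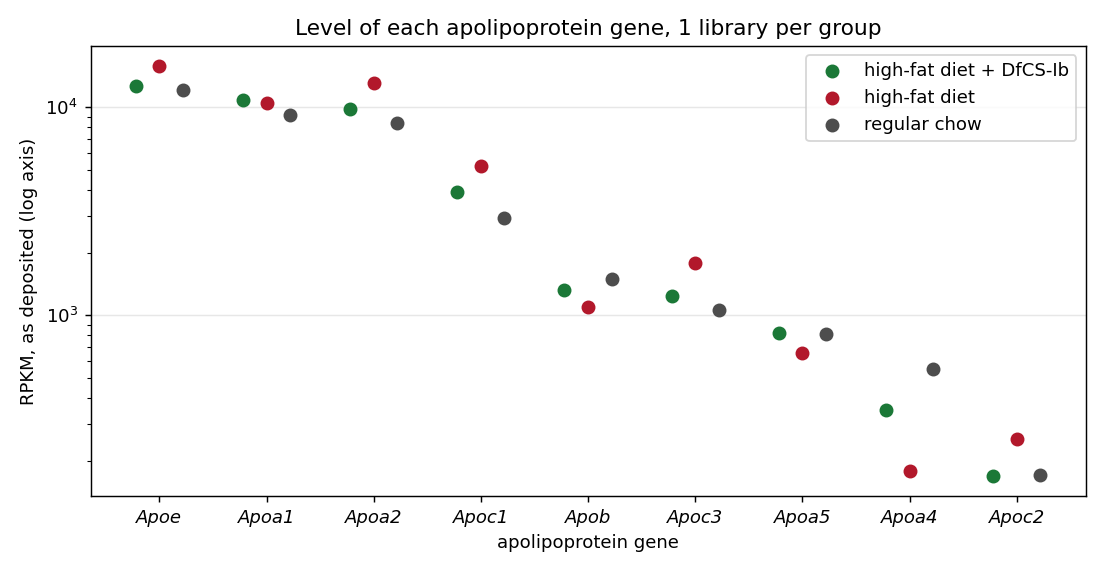
RPKM as deposited (log axis) of the 9 apolipoprotein genes with counts, with 1 point per library and the libraries in the order DfCS-Ib, HFD and chow within each gene. The HFD point is the highest for Apoe, Apoa2, Apoc1, Apoc3 and Apoc2 and the lowest for Apob, Apoa5 and Apoa4.

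Apoa4 was the only one of the 9 genes that stood 2-fold apart in any comparison. In DfCS-Ib over HFD, 1 of 9 was at least 2-fold higher (Apoa4), beside 2.46% of the 13153 genes past the filter of 1 CPM, and 0 of 9 were at least 2-fold lower, beside 2.02%. In HFD over chow, 0 of 9 were at least 2-fold higher, beside 3.47%, and 1 of 9 was at least 2-fold lower (Apoa4), beside 2.27%. In DfCS-Ib over chow, 0 of 9 were 2-fold higher and 0 of 9 were 2-fold lower, beside 1.62% and 0.433% of all genes. At a threshold of 1.5-fold the counts in HFD over chow were 2 higher (Apoc1 and Apoc3) and 1 lower (Apoa4), beside 10.4% and 7.72% of all genes. At 1.5-fold, DfCS-Ib over HFD had 1 higher (Apoa4) and 0 lower, beside 7.62% and 7.16%, and DfCS-Ib over chow had 0 higher and 1 lower (Apoa4), beside 5.69% and 3.06%. Among the 111 other genes of at least 1000 CPM on average, 9.91% were 2-fold higher and 3.60% 2-fold lower in DfCS-Ib over HFD, and 7.21% were 2-fold higher and 11.7% 2-fold lower in HFD over chow. The 3 comparisons share their libraries, so a gene that stands out in the HFD library enters both ratios that contain it, in opposite directions.

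The median log2 ratio of the 9 genes was -0.21 in DfCS-Ib over HFD, 0.27 in HFD over chow and 0.07 in DfCS-Ib over chow. Over all 13153 genes the medians were -0.01, 0.02 and 0.00 in the same comparisons. The HFD library was the highest of the 3 for 5 of the 9 genes and the lowest for 3 of them, against 39.8% and 36.4% of all genes. Apoa1 was the exception, highest in the DfCS-Ib library and lowest in the chow library.

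**Figure D3:**
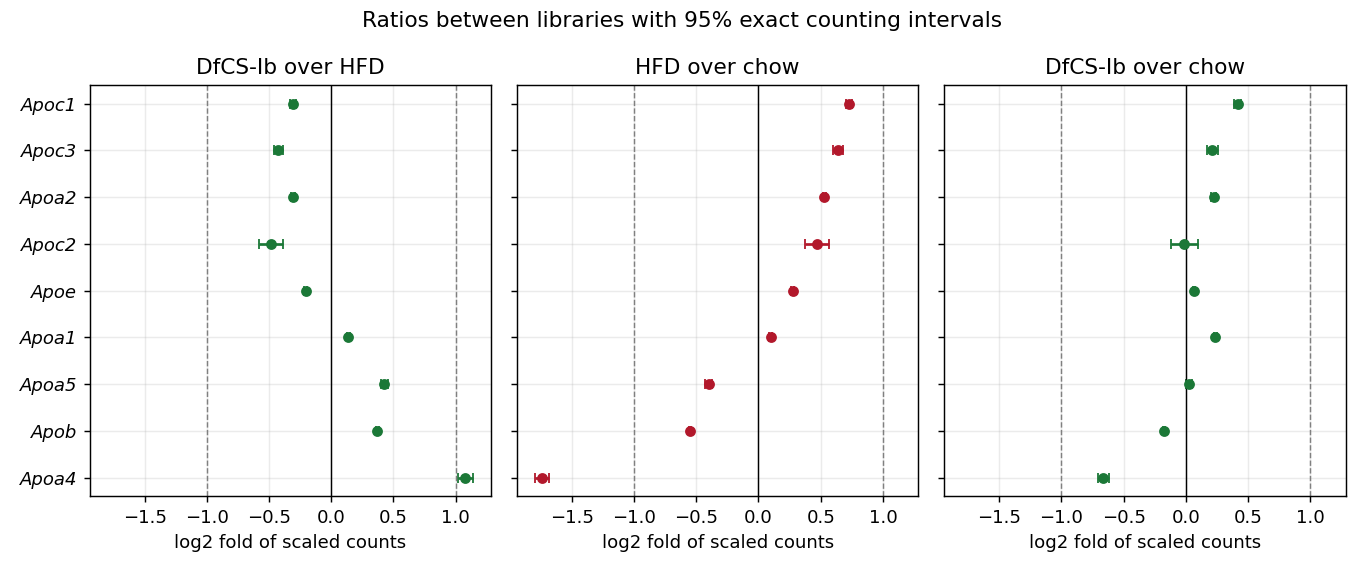
Log2 of the fold between libraries in TMM-scaled counts, for each of the 9 genes with counts, in 3 panels for DfCS-Ib over HFD, HFD over chow and DfCS-Ib over chow. Bars are exact 95% counting intervals and dashed lines mark 2-fold. Apoa4 passes the dashed line on the high side in DfCS-Ib over HFD and on the low side in HFD over chow, and no gene passes it in DfCS-Ib over chow.

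The values of several members moved with the length of the transcript, and this stands beside all the ratios that follow. Among genes with transcripts of up to 1000 bases (1036 genes) the median log2 ratio was -0.12 in DfCS-Ib over HFD and 0.19 in HFD over chow. Among genes over 8000 bases (1194 genes) it was 0.07 in DfCS-Ib over HFD and -0.15 in HFD over chow. The small apolipoproteins are short (Apoc1 554 bases, Apoa2 564, Apoc2 727 and Apoc3 746) and Apob is the longest at 13953 bases. These 4 short members and the long one lie on the sides that genes of their length took. Apoa1, at 988 bases, lay on the other side in DfCS-Ib over HFD, with a log2 ratio of 0.14. The median of the 373 genes of over 500 and up to 750 bases, the class of those 4 short members, was -0.17 in DfCS-Ib over HFD and 0.23 in HFD over chow. With the median of the length class subtracted, the log2 ratio in DfCS-Ib over HFD was -0.13 instead of -0.31 for Apoa2, -0.14 instead of -0.31 for Apoc1, and -0.09 instead of -0.21 for Apoe. In the same comparison it was -0.31 instead of -0.48 for Apoc2, -0.25 instead of -0.43 for Apoc3, and 0.30 instead of 0.37 for Apob. That of Apob in HFD over chow was -0.40 instead of -0.55. The subtracted medians come from genes of at least 1 CPM. Among genes averaging at least 100 CPM, the median over 8000 bases (119 genes) was larger, at 0.23 in DfCS-Ib over HFD and -0.29 in HFD over chow. For over 500 and up to 750 bases (33 genes) it was smaller, at -0.12 and 0.16. The values after subtraction therefore depend on the genes in the class. In both of these comparisons the ratios of Apoa4 and Apoa5 lay farther from 0 after the subtraction. That of Apoa1 lay farther from 0 in DfCS-Ib over HFD, at 0.23. The part of this pattern in the members' ratios was not tested further.

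**Figure D4:**
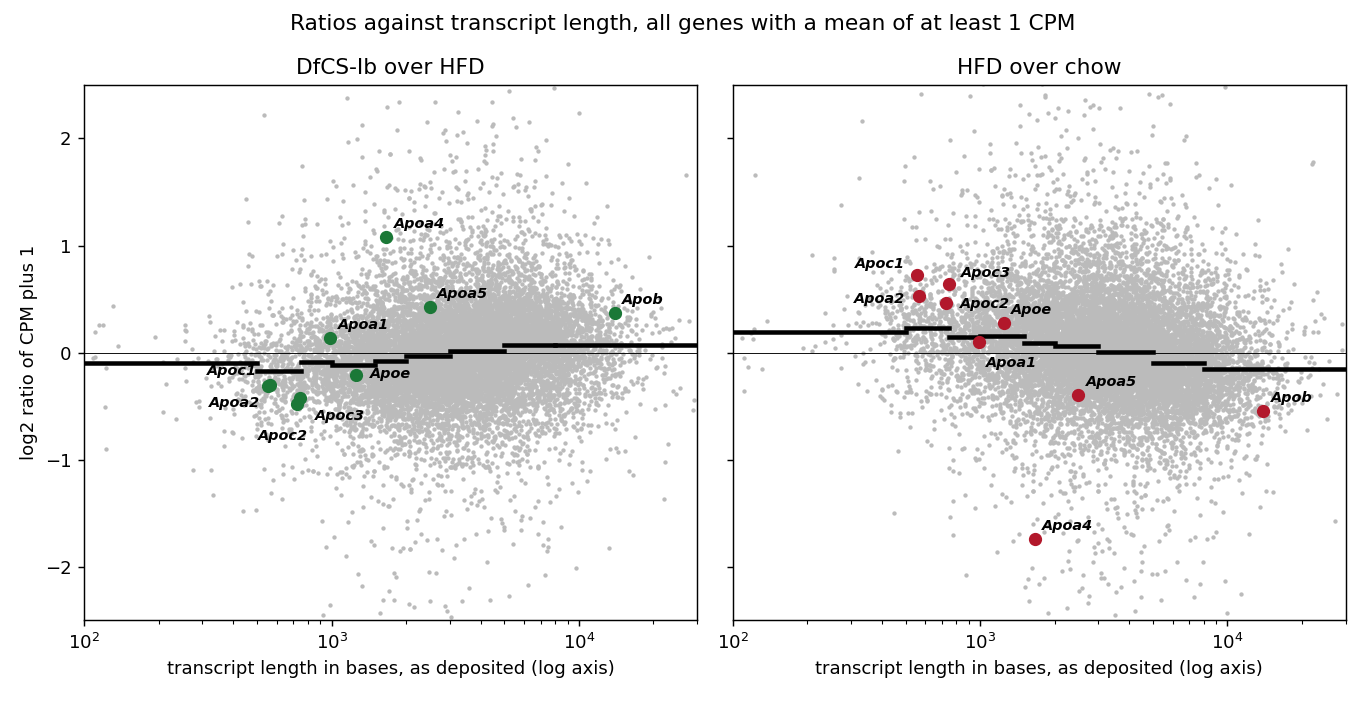
Log2 ratio of CPM plus 1 against transcript length in bases (log axis) for DfCS-Ib over HFD and HFD over chow, with the 9 apolipoproteins in colour, the other 13144 genes past the filter of 1 CPM in grey and the median of each length class as a black line. The black line lies below 0 for short and above 0 for long transcripts in DfCS-Ib over HFD and the other way in HFD over chow, and Apoa4 lies far from it in both. Of the grey genes, 96 in the first panel and 113 in the second lie outside the plotted range.

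Among the HDL proteins, Apoa1 (chr9:46228630-46230469, plus strand) was nearly level and Apoa2 (chr1:171225011-171226379, plus strand) was highest in the HFD library. Apoa1, whose product activates the cholesterol-esterifying enzyme LCAT, had 116745 counts or 10882 CPM in the DfCS-Ib library, 127303 counts or 9893 CPM in the HFD library and 99321 counts or 9230 CPM in the chow library. Apoa1 was 1.10-fold (1.09 to 1.11) in DfCS-Ib over HFD (level relative to Alb), 1.07-fold in HFD over chow (a log2 ratio of -0.05 with the median of its length class subtracted) and 1.18-fold in DfCS-Ib over chow. The largest of these ratios was therefore between the DfCS-Ib and the chow library. In DfCS-Ib over HFD the log2 ratio of Apoa1 was 0.14, and 0.23 with the median of its length class subtracted. Relative to Alb the median log2 ratio of all genes in that comparison was -0.14.

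Apoa2 had 60803 counts or 5667 CPM in the DfCS-Ib library, 90173 counts or 7008 CPM in the HFD library and 52214 counts or 4852 CPM in the chow library. It was 1.24-fold lower (1.22 to 1.25) in DfCS-Ib than in HFD and 1.44-fold higher (1.43 to 1.46) in HFD than in chow. With the median of its length class subtracted, the log2 ratio of Apoa2 in HFD over chow was 0.30. The ratio of Apoa1 to Apoa2 within a library needs no scaling between libraries, and per length it was 1.10 (1.09 to 1.11) in the DfCS-Ib library, 0.806 (0.799 to 0.813) in the HFD library and 1.09 (1.07 to 1.10) in the chow library. The intervals of the DfCS-Ib and the chow library overlapped and that of the HFD library lay below both. Apoa2 carried 23.9% of the family's summed RPKM in the DfCS-Ib library, 26.9% in the HFD library and 22.9% in the chow library, and Apoa1 carried 26.2%, 21.7% and 24.9% in the same libraries.

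Apob, the scaffold of VLDL (chr12:7977633-8016839, plus strand), was lowest in the HFD library. It had 202625 counts or 18887 CPM in the DfCS-Ib library, 187893 counts or 14602 CPM in the HFD library and 229859 counts or 21361 CPM in the chow library. Apob was 1.29-fold higher (1.29 to 1.30) in DfCS-Ib than in HFD and 1.46-fold lower (1.45 to 1.47) in HFD than in chow. It was 1.13-fold lower in DfCS-Ib than in chow, although relative to Alb this was reversed in sign. Relative to Alb the median log2 ratio of all genes in DfCS-Ib over chow was 0.24. Over the alternatives tried, the log2 ratio of Apob in HFD over chow, -0.55, ranged from -0.56 to -0.14, with -0.14 relative to Alb. In DfCS-Ib over HFD it ranged from 0.23 to 0.38. Per length, the ratio of Apoe to Apob was 9.58 (9.52 to 9.64) in the DfCS-Ib library, 14.3 (14.2 to 14.4) in the HFD library and 8.09 (8.03 to 8.14) in the chow library. The change in that ratio was 1.77-fold in HFD over chow, with no overlap of the counting intervals. Apoe and Apob differ in length, so the length pattern described above enters this ratio.

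In mouse liver the Apob transcript is edited by the deaminase APOBEC1, which turns a glutamine codon into a stop and gives the short form apoB-48 beside the full-length apoB-100. The coding sequence around that codon is shown because the counts include both forms. It lies at chr12:8008042-8008086 on the plus strand of GRCm38, in exon 26 of 29, and the CAA codon in capitals is codon 2179 counted from the initiator, with the edited base at position 8008054.
Apob edited codon: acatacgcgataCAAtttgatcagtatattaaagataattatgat
Gene counts do not separate edited from unedited transcripts, so editing was not measured here. Apobec1 itself had 17.1 CPM in the DfCS-Ib library, 19.97 CPM in the HFD library and 9.66 CPM in the chow library, which was 2.07-fold (1.64 to 2.62) in HFD over chow and 0.854-fold (0.703 to 1.04) in DfCS-Ib over HFD. On the scale of CPM plus 1 it lay just under 2-fold, at a log2 ratio of 0.98 in HFD over chow. A1cf, which encodes a cofactor of the editing enzyme, had 354 CPM in the DfCS-Ib library, 399 CPM in the HFD library and 345 CPM in the chow library. Mttp, whose product loads lipid onto apolipoprotein B, had 521 CPM in the DfCS-Ib library, 459 CPM in the HFD library and 527 CPM in the chow library, lowest in the HFD library as Apob was.

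Apoe and Apoc1, neighbours on chromosome 7, were both highest in the HFD library. Apoe (chr7:19696244-19699166, minus strand), the ligand by which remnant particles are taken up, had 174065 counts or 16224 CPM in the DfCS-Ib library, 240986 counts or 18728 CPM in the HFD library and 166635 counts or 15485 CPM in the chow library. Apoe was 1.15-fold lower (1.15 to 1.16) in DfCS-Ib than in HFD and 1.21-fold higher (1.20 to 1.22) in HFD than in chow. With the median of its length class subtracted, its log2 ratio in HFD over chow was 0.12. Macrophages also make apolipoprotein E, and in whole tissue fewer cells of a type cannot be told apart from less RNA per cell. The 11 markers of Kupffer cells and other macrophages were all detected and summed to 782 CPM in the DfCS-Ib library, 462 CPM in the HFD library and 361 CPM in the chow library. All 11 were higher in DfCS-Ib than in HFD, with a median log2 ratio of 0.64, while Apoe was lower there. The part of these cells in the Apoe values was not tested.

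Apoc1 (chr7:19689480-19692659, minus strand), whose small exchangeable product is known in humans to inhibit the cholesteryl ester transfer protein, had 23783 counts or 2217 CPM in the DfCS-Ib library, 35319 counts or 2745 CPM in the HFD library and 17854 counts or 1659 CPM in the chow library. It was 1.24-fold lower (1.22 to 1.26) in DfCS-Ib than in HFD, 1.65-fold higher (1.62 to 1.68) in HFD than in chow and 1.34-fold higher (1.31 to 1.36) in DfCS-Ib than in chow. Its ratio in DfCS-Ib over chow was the highest of the 9 genes. With the length-class median subtracted, its log2 ratio in HFD over chow was 0.49. Per length, Apoc1 stood at 0.309 (0.304 to 0.313) of Apoe in the DfCS-Ib library, 0.331 (0.327 to 0.335) in the HFD library and 0.242 (0.238 to 0.246) in the chow library. The mixture of these neighbours in the DfCS-Ib library thus lay nearer to that of the HFD library than to that of the chow library.

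The 3 genes whose products set how fast triglyceride is hydrolysed in plasma differed in direction. Apoc2 (chr7:19671579-19677941, minus strand), the activator of lipoprotein lipase, had 1350 counts or 126 CPM in the DfCS-Ib library, 2262 counts or 176 CPM in the HFD library and 1366 counts or 127 CPM in the chow library. It was 1.40-fold lower (1.31 to 1.496) in DfCS-Ib than in HFD and 1.38-fold higher (1.29 to 1.48) in HFD than in chow. In DfCS-Ib over chow its ratio was 0.991-fold (0.919 to 1.07), an interval that contains 1. Apoc3 (chr9:46233050-46235636, minus strand), an inhibitor of lipolysis and of remnant uptake, had 10088 counts or 940 CPM in the DfCS-Ib library, 16251 counts or 1263 CPM in the HFD library and 8718 counts or 810 CPM in the chow library. Apoc3 was 1.34-fold lower (1.31 to 1.38) in DfCS-Ib than in HFD and 1.56-fold higher (1.52 to 1.60) in HFD than in chow. With the length-class median subtracted, the log2 ratios in HFD over chow were 0.23 for Apoc2 and 0.41 for Apoc3.

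Apoa5 (chr9:46268608-46271919, plus strand), which promotes lipolysis, went the other way. It had 22591 counts or 2106 CPM in the DfCS-Ib library, 20155 counts or 1566 CPM in the HFD library and 22251 counts or 2068 CPM in the chow library. Apoa5 was 1.34-fold higher (1.32 to 1.37) in DfCS-Ib than in HFD and 1.32-fold lower (1.30 to 1.35) in HFD than in chow. Relative to Alb it was level in HFD over chow, where the median log2 ratio of all genes was 0.38. The DfCS-Ib and chow libraries differed by 1.02-fold (0.9996 to 1.04), with 1 inside the counting interval.

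The ratio of Apoc3 to Apoa5 sets the inhibitor against the promoter of lipolysis within a single library. Per length it was 1.49 (1.46 to 1.53) in the DfCS-Ib library, 2.70 (2.64 to 2.75) in the HFD library and 1.31 (1.28 to 1.34) in the chow library. The ratio was 0.554-fold in DfCS-Ib over HFD and 2.06-fold in HFD over chow. The ratio of Apoc3 to Apoc2, the inhibitor against the activator, moved less, at 7.28 (6.88 to 7.71) in the DfCS-Ib library, 7.001 (6.70 to 7.32) in the HFD library and 6.22 (5.87 to 6.59) in the chow library. Its intervals overlapped between the DfCS-Ib and the HFD library and lay above that of the chow library in both.

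Apoa4 (chr9:46240844-46243458, plus strand) had the widest range of the family. Its product is an exchangeable apolipoprotein of chylomicrons and HDL, made mainly in the intestine and also in mouse liver. Apoa4 had 6403 counts or 597 CPM in the DfCS-Ib library, 3636 counts or 283 CPM in the HFD library and 10160 counts or 944 CPM in the chow library. It was highest in the chow library, intermediate in the DfCS-Ib library and lowest in the HFD library, with no overlap of the counting intervals. Apoa4 was 2.11-fold higher (2.03 to 2.20) in DfCS-Ib than in HFD, 3.34-fold lower (3.22 to 3.47) in HFD than in chow and 1.58-fold lower (1.53 to 1.63) in DfCS-Ib than in chow. The log2 ratio in DfCS-Ib over HFD was 1.08 and ranged from 0.93 to 1.15 over the scalings tried, so its place at or above 2-fold there depends on the scaling. In HFD over chow it stayed beyond 2-fold lower under each of them.

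Within libraries, Apoa1 exceeded Apoa4 per length by 30.7-fold in the DfCS-Ib library, 59.0-fold in the HFD library and 16.5-fold in the chow library. Apoa4 made up 0.852% of the family's summed RPKM in the DfCS-Ib library, 0.368% in the HFD library and 1.51% in the chow library. Of 9 markers of the intestine, 7 were at 0 in every library, and the markers with counts were Fabp2, at 80.9 CPM in the DfCS-Ib library, 102 CPM in the HFD library and 61.7 CPM in the chow library, and Vil1. The order of the libraries in Fabp2 was the reverse of that in Apoa4.

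The genes outside the family whose pattern over the 3 libraries lay nearest to Apoa4 were sought among 1312 genes averaging at least 100 CPM, by Euclidean distance over the log2 ratios of HFD over chow and DfCS-Ib over chow. The nearest was Sds, which encodes serine dehydratase, with 290 CPM in the DfCS-Ib library, 131 CPM in the HFD library and 444 CPM in the chow library (distance 0.0536). Next was Tmed5, for a protein of the early secretory pathway, with 238 CPM in the DfCS-Ib library, 105 CPM in the HFD library and 339 CPM in the chow library. The third was Ehhadh, for a bifunctional enzyme of peroxisomal fatty acid oxidation, with 1123 CPM in the DfCS-Ib library, 505 CPM in the HFD library and 1530 CPM in the chow library. Likeness over 3 libraries is a description and says nothing of shared control.

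Apom, which encodes an HDL protein that carries sphingosine-1-phosphate, is known as a liver transcript but was listed at 0 in all 3 libraries. Its model in the deposited tables lies on a scaffold sequence and is not given on a chromosome. Of 529 protein-coding genes on scaffolds of that kind, 373 (70.5%) were at 0 in every library. The zeros of Apom therefore do not show that it was not expressed, and no fold is given.

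The chromosome 9 cluster did not move as a unit, while the genes of the chromosome 7 cluster shared a direction in HFD over chow. On chromosome 9, where the 4 genes lie within 43.3 kb, Apoa4 and Apoa5 were higher in DfCS-Ib than in HFD and lower in HFD than in chow (Apoa5 level there relative to Alb), Apoc3, which lies between Apoa1 and Apoa4, went the other way, and Apoa1 was nearly level. On chromosome 7 the cluster spans 27.6 kb. There Apoc2, Apoc1 and Apoe were all lower in DfCS-Ib than in HFD and higher in HFD than in chow. Genes of their length took the same side, with class medians in HFD over chow of 0.23 for Apoc1 and Apoc2 and 0.15 for Apoe. With the class medians subtracted, the ratios of these genes were smaller and kept their signs. Apoc4, which lies in the same cluster and is not one of the 10 genes, had 697 CPM in the DfCS-Ib library, 678 CPM in the HFD library and 607 CPM in the chow library, with log2 ratios of 0.04 in DfCS-Ib over HFD and 0.16 in HFD over chow. The 3 genes past the filter of 1 CPM within 100 kb of the chromosome 9 cluster (Sik3, Zpr1 and Bud13) had log2 ratios from -0.11 to 0.60 in DfCS-Ib over HFD and from -0.57 to -0.09 in HFD over chow. The 8 such genes around the chromosome 7 cluster ranged from -0.54 to 0.33 in DfCS-Ib over HFD and from -0.56 to 0.40 in HFD over chow. None of these 11 neighbours was 2-fold apart in any comparison, and no member's model overlapped another listed gene.

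**Figure D5:**
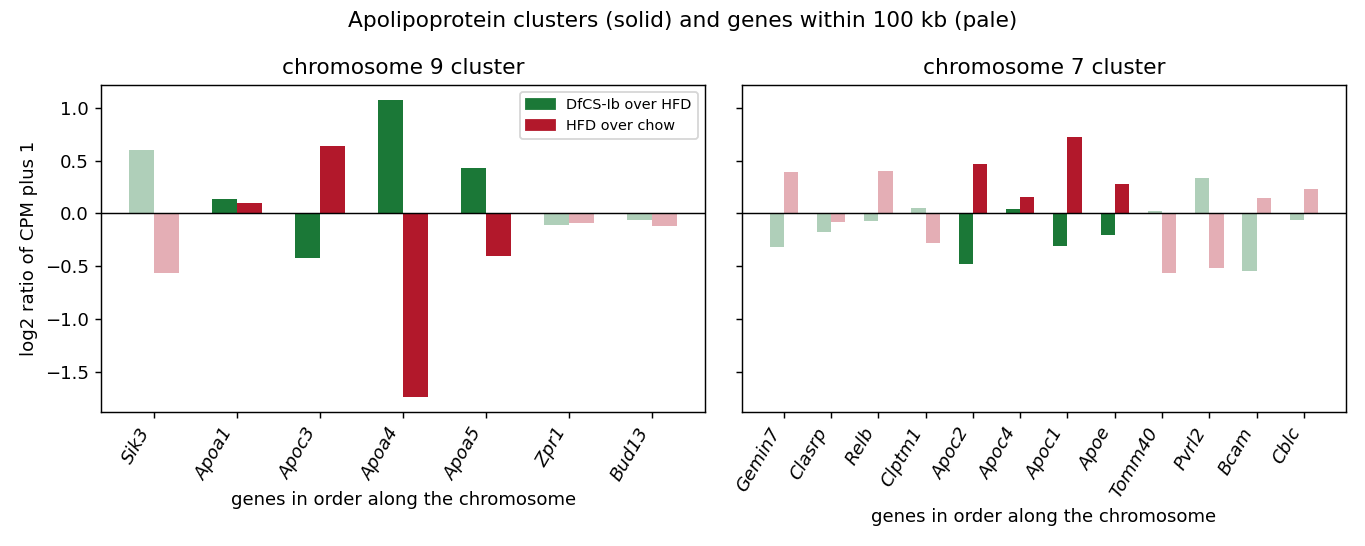
Log2 ratio of CPM plus 1 for DfCS-Ib over HFD (green) and HFD over chow (red) for the genes of the chromosome 9 and chromosome 7 apolipoprotein clusters (solid bars) and the genes past that filter within 100 kb (pale bars), in their order along the chromosome. In the chromosome 9 cluster Apoc3 and Apoa4 have bars of opposite sign, and in the chromosome 7 cluster Apoc2, Apoc1 and Apoe share their signs.

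Lists of genes that act around the apolipoproteins are given by their counts, beside the background shares above, or by their medians. Of 12 further genes of apolipoproteins and other lipoprotein-bound proteins (among them Pon1, for the HDL enzyme paraoxonase) that passed the filter, 0 were 2-fold higher and 1 was 2-fold lower in DfCS-Ib than in HFD (Apol7a, at 54.8 CPM in the DfCS-Ib library, 135 CPM in the HFD library and 41.2 CPM in the chow library). In HFD over chow 4 were 2-fold higher and 0 lower. They were Apol7a, Apol9a, Apol9b and Saa4, the amyloid A protein that is present on HDL without an acute stimulus. In DfCS-Ib over chow 3 were 2-fold higher and 0 lower. Saa4 had 199 CPM in the DfCS-Ib library, 217 CPM in the HFD library and 82.7 CPM in the chow library. Apol9a and Apol9b are near-identical copies, so the split of reads between them is uncertain: Apol9a had 17.8 CPM in the DfCS-Ib library, 16.6 CPM in the HFD library and 4.37 CPM in the chow library, and Apol9b had 41.4 CPM, 53.1 CPM and 18.0 CPM in the same libraries. The median log2 ratio of this list was -0.02 in DfCS-Ib over HFD, 0.25 in HFD over chow and 0.30 in DfCS-Ib over chow.

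Of 18 genes of VLDL assembly and lipid loading, 0 were 2-fold apart in DfCS-Ib over HFD and 1 was 2-fold higher in HFD over chow, on the scale of CPM plus 1. Under other scalings the count of lower genes in DfCS-Ib over HFD reached 1 or 2, and that of higher genes in HFD over chow reached 2 to 4. The gene counted was Ces1g, a carboxylesterase, with 136 CPM in the DfCS-Ib library, 271 CPM in the HFD library and 91.7 CPM in the chow library, which is at the 2-fold threshold in DfCS-Ib over HFD (a log2 ratio of -0.995). The median log2 ratio of the list was -0.21 in DfCS-Ib over HFD and 0.31 in HFD over chow. The 11 genes that remodel lipoproteins in plasma had a median log2 ratio of -0.12 in DfCS-Ib over HFD and 0.38 in HFD over chow. Lipg, for endothelial lipase, had 37.0 CPM in the DfCS-Ib library, 10.02 CPM in the HFD library and 20.4 CPM in the chow library. Pltp, the phospholipid transfer protein, had 30.5 CPM in the DfCS-Ib library, 59.5 CPM in the HFD library and 24.3 CPM in the chow library.

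The 14 receptors and efflux genes had a median log2 ratio of -0.03 in DfCS-Ib over HFD, 0.20 in HFD over chow and 0.21 in DfCS-Ib over chow.

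The 26 transcription factors known to act on apolipoprotein genes or on hepatic lipid metabolism included 4 that stood 2-fold or more above and 4 that stood 2-fold or more below in DfCS-Ib over HFD, beside 2.46% and 2.02% of all genes. By the same threshold 5 were higher and 3 lower in HFD over chow, beside 3.47% and 2.27%, and the count of lower genes was 1 under 4 other scalings. In DfCS-Ib over chow 2 were 2-fold higher and 0 lower, beside 1.62% and 0.433%. Srebf1, for the factor that drives fatty acid synthesis, had 27.3 CPM in the DfCS-Ib library, 204 CPM in the HFD library and 17.6 CPM in the chow library. Srebf2, for the factor that drives cholesterol synthesis, had 40.6 CPM in the DfCS-Ib library, 68.0 CPM in the HFD library and 33.4 CPM in the chow library. Mlxipl, for the carbohydrate-responsive factor ChREBP, had 101 CPM in the DfCS-Ib library, 213 CPM in the HFD library and 105 CPM in the chow library. These lipogenic factors were all highest in the HFD library, beside 39.8% of all genes.

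Ppara, for the fatty acid receptor that drives fatty acid oxidation, had 617 CPM in the DfCS-Ib library, 288 CPM in the HFD library and 421 CPM in the chow library, a 2.15-fold (2.06 to 2.24) higher level in DfCS-Ib than in HFD. Ppargc1a, for a coactivator induced by fasting, had 30.6 CPM in the DfCS-Ib library, 11.1 CPM in the HFD library and 33.6 CPM in the chow library. Foxo1, for a factor inhibited by insulin, had 72.1 CPM in the DfCS-Ib library, 38.2 CPM in the HFD library and 77.8 CPM in the chow library. All 3 were lowest in the HFD library, as were Apoa4, Apoa5 and Apob, beside 36.4% of all genes. These 3 factors were named because they stood 2-fold apart in a comparison, so their place follows in part from that choice. A link to the members was not tested.

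Onecut1, a hepatocyte factor, had 6.80 CPM in the DfCS-Ib library, 32.3 CPM in the HFD library and 8.36 CPM in the chow library. Foxa2, for a pioneer factor of liver genes, had 26.3 CPM in the DfCS-Ib library, 40.9 CPM in the HFD library and 14.6 CPM in the chow library, while its paralogue Foxa3 had 58.9 CPM, 37.0 CPM and 78.0 CPM in the same libraries. Cebpb, for a factor of the acute-phase response, had 188 CPM in the DfCS-Ib library, 56.4 CPM in the HFD library and 71.6 CPM in the chow library. Nr1d1, for a repressor of the circadian clock, had 97.03 CPM in the DfCS-Ib library, 42.1 CPM in the HFD library and 31.5 CPM in the chow library. The hour at which the livers were taken is not given in the sources used here, and its part in this value was not tested.

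The rest of the regulators lay within 2-fold. Hnf4a, for the nuclear receptor that drives several apolipoprotein genes, had 1186 CPM in the DfCS-Ib library, 812 CPM in the HFD library and 1319 CPM in the chow library. Creb3l3, for a factor that drives Apoa4 and Apoc2 in mouse liver, had 418 CPM in the DfCS-Ib library, 269 CPM in the HFD library and 368 CPM in the chow library. Both were lowest in the HFD library, beside 36.4% of all genes, on the side of Apoa4 and opposite to Apoc2. Hnf4a and Creb3l3 were named for their known roles after their values were seen, as were Mttp, Apobec1 and A1cf above.

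As abundant secreted hepatocyte products outside the family, Alb had 93946 CPM in the DfCS-Ib library, 85030 CPM in the HFD library and 112771 CPM in the chow library, and Ttr had 3797 CPM, 5633 CPM and 3426 CPM in the same libraries. Alb was lowest in the HFD library and Ttr highest. Relative to Alb, Apoa1 was level between the DfCS-Ib and the HFD library (log2 ratio -0.01). Apoa5 was level between the HFD and the chow library (log2 ratio 0.01). The directions given for these genes in those comparisons therefore rest on the scaling. Relative to Alb the median of all genes was itself -0.14 in DfCS-Ib over HFD and 0.38 in HFD over chow. Against that median Apoa1 stayed higher and Apoa5 lower, as with TMM.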

How the data were processed

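Counts per gene were deposited for each library by the authors, with RPKM beside them. Alignment with TopHat2 to the mm10 build is stated, per the submitters' processing notes. How reads were counted, whether by strand and what was done with reads of several matches is not given in the sources used here. The deposited RPKM equals the count divided by transcript length and by the library's own count total, to within 0.000506% for counts of at least 100. No member's model overlapped another gene.

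Counts were scaled with TMM factors (edgeR 4.0.16 in R 4.3.3) of 0.978 for the DfCS-Ib library, 1.05 for the HFD library and 0.976 for the chow library, and given as CPM. Log2 ratios use CPM plus 1 and folds use no pseudocount. All 13153 genes averaging 1 CPM or more formed the background, and 2-fold (in addition 1.5-fold) was the threshold. With 1 library per group there was no test. Intervals are exact 95% intervals of the split of counts (scipy 1.17.1) and cover counting error only. They treat reads as independent molecules, which reads are not, so they can be too narrow even for counting error. Variation between mice or libraries is not in them. A count of 0 allows up to 3 counts, which is 0.280 CPM in the DfCS-Ib library, 0.233 CPM in the HFD library and 0.279 CPM in the chow library.

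The members and the lists were chosen with earlier results of these data known. Named genes were every member, list genes at least 2-fold apart in any comparison, genes within 100 kb of the clusters, the 3 genes nearest in pattern to the member of widest range, and Alb and Ttr; some list genes are not reported here. Alternatives were other scalings (DESeq2 1.42.0 size factors among them), thinning, a pseudocount of 0.1, a lower fold and no filter; subtracting the median of the length class was chosen after seeing the data. The calculation was tested on simulated data. Upstream sequences come from RefSeq (the start nearest the deposited gene start, where several were listed) and the Apob coding sequence from GENCODE M21, both on GRCm38.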

Additional observations from a re-analysis of the deposited data

How the results depend on the processing

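With 1 library per group, biological and technical variation cannot be estimated from these data, and depth limits the precision of no abundant member: counting intervals are narrow beside the effect of scaling. No paired analysis was possible because each group has 1 library. No ratio called at 2-fold reversed under any alternative. The count of members at least 2-fold higher in DfCS-Ib over HFD was 1 and became 0 with library totals alone, with the authors' RPKM, with library size without the 10 members and relative to Alb, where Apoa4 lay just under the threshold (log2 ratio down to 0.93). In HFD over chow the count of 2-fold higher members, 0, became 2 relative to Alb and 2 at 1.5-fold. In DfCS-Ib over chow the count of lower members, 0, became 1 at 1.5-fold.

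The summed apolipoprotein level in DfCS-Ib over HFD, 1.02, was 0.956 with library totals alone, 1.03 with DESeq2 size factors, 0.850 in RPKM, 0.999 without the 50 most abundant genes in the library size, 0.954 without the members in it and 0.927 relative to Alb. In HFD over chow, 0.995 became 1.07 with library totals alone, 0.988 with DESeq2 size factors, 1.32 in RPKM, 1.07 without the members and 1.32 relative to Alb. In DfCS-Ib over chow, 1.02 became 1.12 in RPKM, 0.996 without the 50 most abundant genes, 1.02 without the members and 1.22 relative to Alb. Apart from the construction of each scaling, the cause was not tested. The median log2 ratio of all genes relative to Alb was -0.14 in DfCS-Ib over HFD, 0.38 in HFD over chow and 0.24 in DfCS-Ib over chow, against -0.01, 0.02 and 0.00 with TMM. Apoa1 changed sign in HFD over chow (-0.05) when the median of its length class was subtracted. That median was 0.15 among genes of at least 1 CPM. Among genes averaging at least 100 CPM it was 0.04, which is below the 0.10 of Apoa1. Of 300 counts over the lists and scalings, 268 stayed within 1.5 times of the main count and 32 did not.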
